A study of Mus musculus with 2 samples.

Results

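Crabp1-positive dermal fibroblasts were taken as the cell barcodes that carried at least 1 unique molecular identifier (UMI, 1 captured transcript molecule) of Crabp1, together with 200 to 5000 detected genes and at most 10% of UMIs from mitochondrial genes. They numbered 214 of the 2344 barcodes that passed these limits, out of 6462 deposited barcodes in both libraries. Of these, 197 lay among the 1301 passing barcodes of untreated (UT) skin and 17 among the 1043 of imiquimod-treated (IMQ) skin. The barcodes were thus selected on Crabp1 itself, and its values are given only as a description.

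The study asked which fibroblast populations are present in healthy and in psoriasis-like mouse dermis. It used C57BL/6 mice aged 8 weeks carrying PdgfraDreER-tdTomato, in which a tamoxifen-inducible Dre recombinase under the control of Pdgfra switches on the red protein tdTomato, so that only cells that have expressed Pdgfra are labelled. Dermal cells that were live, CD45- and tdTomato+ were sorted, and both groups share the genotype and the sort. One library was made from UT skin and one from skin that had received imiquimod, an agonist of Toll-like receptor 7 used to provoke psoriasis-like inflammation, for 7 days. The number of mice behind each library is not given in the sources used here. With 1 library per group no difference between UT and IMQ, or between sets of barcodes, could be tested over animals. All intervals below are 95% intervals that cover counting error only.

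The deposited matrices held 1524079 UMIs over 1415 barcodes in UT and 2358303 over 5047 in IMQ, with medians of 714 and 688 UMIs in the passing barcodes, and 1 barcode sequence occurred in both. The Crabp1-positive barcodes held 18.6% of the UMIs of all passing UT barcodes and 3.93% of those of IMQ. Their median depth was 824 UMIs (350 to 7517) in UT and 899 (453 to 7705) in IMQ, so most genes were seen with few molecules per barcode.

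CRABP1 is a cytosolic protein that binds retinoic acid, the active derivative of vitamin A, and hands it to enzymes that break it down. Retinoic acid shapes hair follicle growth and the identity of dermal fibroblasts, and CYP26B1, another member of the same pathway, is one of the enzymes that degrade it. In mouse skin Crabp1 is known from the dermal papilla, the cluster of specialised fibroblasts at the base of the hair follicle that signals to the epithelium, and from subsets of upper dermal fibroblasts. The Crabp1 gene lies on chromosome 9 (54764748 to 54773110, forward strand, GRCm38).

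Crabp1 UMIs were spread unevenly over the barcodes. In the UT library the 197 barcodes held 587 Crabp1 UMIs. Of these barcodes, 120 stood just inside the threshold with exactly 1 UMI, 49 had 2 to 4 and 28 had 5 or more, with a highest value of 46. Those 28 barcodes held 339 UMIs, 57.8% of the total. In the IMQ library the 17 barcodes held 62 Crabp1 UMIs, with 8 barcodes at 1 UMI, 4 at 2 to 4 and 5 at 5 or more, up to 18.

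**Figure D1:**
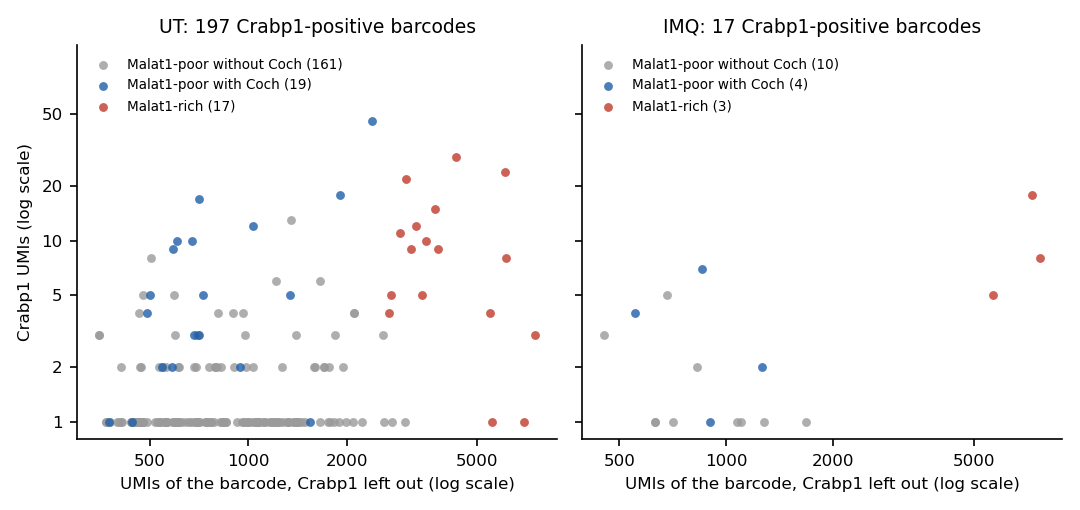
Crabp1 UMIs of each Crabp1-positive barcode (vertical, log scale) against its total UMIs without Crabp1 (horizontal, log scale) in the UT and IMQ libraries, with 1 point per barcode. Red points are barcodes with at least 10 UMIs of Malat1, blue points are other barcodes with Coch and grey points are the rest, and in UT the 17 red points lie at 2692 UMIs or more, while the highest blue point, with 46 Crabp1 UMIs, lies at 2381.

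The share of Crabp1-positive barcodes was 15.1% in UT (exact binomial interval 13.2 to 17.2%) and 1.63% in IMQ (0.952 to 2.60%). After every barcode was thinned to 400 UMIs, which left out 96 shallower UT and 50 shallower IMQ barcodes, it was 10.1% (8.48 to 12%) and 1.31% (0.699 to 2.23%). The higher share in UT was therefore present at equal depth, but it compares 2 libraries. Outside the limits, 14 more UT barcodes held 28 Crabp1 UMIs and 31 IMQ barcodes held 60, nearly as many as the 62 inside the limits in IMQ. Free RNA in the droplets could add single UMIs, and the sort left too few other cells to bound it. Among barcodes with UMIs of at least 2 of the MHC class II genes Cd74, H2-Aa, H2-Ab1 and H2-Eb1, which should lack Crabp1, 0 of 11 UT barcodes (median 483 UMIs) and 0 of 7 IMQ barcodes (median 546 UMIs) carried it. The exact binomial intervals allow shares of up to 28.5% and 41.0%.

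To describe what else these barcodes held, each was set beside 5 barcodes of the same library with 0 Crabp1 UMIs and the nearest total of UMIs. In UT this gave 985 matched barcodes with a median of 759 UMIs, against 824 in the 197 Crabp1-positive barcodes. The upper quartiles were 1131 and 1377 UMIs, so the match was looser among deep barcodes. Counts of barcodes with a gene are therefore not at fully equal depth. Levels are in CPM, a gene's summed UMIs divided by the total of its set and multiplied by 1000000, with Crabp1 left out of every total. Here genes are called higher or lower when their CPM, with 20 CPM added to both sides, differed at least 2-fold. Of 7354 genes with at least 10 UMIs, 245 (3.33%) were higher and 82 (1.12%) were lower in the Crabp1-positive barcodes of UT, and the median log2 ratio of all genes was 0.06. These shares are the background for every count of genes in UT below. The minimum of 10 UMIs counts both sets, so a gene rare in the matched set can pass it only where it is higher.

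The data went with the label only in part. Of the marker genes named beside Crabp1, Coch, which encodes the secreted matrix protein cochlin (chromosome 12, 51593341 to 51605771), was higher, with 122 UMIs in 20 of the 197 Crabp1-positive barcodes and 67 UMIs in 13 of the 985 matched barcodes. This gave 498 against 68.8 CPM, a 7.24-fold difference (5.33 to 9.90). Coch was therefore seen in a small part of the Crabp1-positive barcodes, and 2 barcodes with 39 and 38 UMIs held 63.1% of its molecules. Without the first of them the fold was 4.97. After thinning to 400 UMIs Coch was seen in 15 of 190 Crabp1-positive barcodes (7.89%, 4.49 to 12.7%) and in 10 of 1015 others (0.985%, 0.473 to 1.80%).

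Cyp26b1 (chromosome 6, 84571414 to 84593908) did not set the Crabp1-positive barcodes apart as a whole. It had 116 UMIs in 54 of them and 378 in 217 matched barcodes, or 474 against 388 CPM, a fold of 1.22 with an interval that includes 1 (0.982 to 1.51). At 400 UMIs it was seen in 11.6% of the Crabp1-positive and 11.9% of the other barcodes. Its level was uneven within the set, at 605 CPM (475 to 760) with 1 Crabp1 UMI and 161 CPM (77.1 to 296) with 5 or more. Cyp26b1 was found in 5 of the 20 Crabp1-positive barcodes with Coch and in 54 of all 197 (27.4%), so carrying Coch hardly changed how often it was seen.

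General fibroblast genes were present. At least 1 UMI of Dcn, which encodes the small proteoglycan decorin, was found in 182 of the 197 barcodes, and of Col1a1, a chain of collagen I, in 167. Pdgfra, the gene that drives the reporter, had 11 UMIs in 8 barcodes against 41 in 36 matched ones (1.07-fold, 0.494 to 2.11), so its transcript was rarely captured in either set. Markers of other cell types were few in the Crabp1-positive barcodes of UT. The 10 immune genes gave 11 UMIs in all (44.9 CPM) with 6 of them at 0, the 12 keratinocyte genes 41 UMIs (167 CPM) with 7 at 0, the 10 endothelial genes 22 UMIs (89.8 CPM) with 8 at 0, and the 6 melanocyte genes 1 UMI. The 7 Schwann and glial genes gave 47 UMIs (192 CPM) and the 7 mural genes 30 (122 CPM), against 309 and 178 CPM in the matched barcodes, and the endothelial genes were level with the matched 91.4 CPM. The matched barcodes held more of the immune and keratinocyte genes, at 2437 and 506 CPM, so 8 immune and 2 keratinocyte genes counted as lower.

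The level of several genes followed the number of Crabp1 UMIs. Col1a1 stood at 29706 CPM in barcodes with 0, 26124 with 1, 10958 with 2 to 4 and 1447 (1163 to 1778) with 5 or more Crabp1 UMIs. Dcn was at 26746, 24905, 18297 and 4324 CPM in the same order. The barcodes richest in Crabp1 thus had the least collagen RNA per UMI.

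Some genes that were higher in the whole set also increased along these steps. Dkk2, a secreted inhibitor of canonical Wnt signalling that is typical of papillary fibroblasts (chromosome 3, 132085292 to 132180304), was, from 0 to 5 or more Crabp1 UMIs, at 78.0, 155, 612 and 2025 CPM. At 1 Crabp1 UMI, 14 of the 19 Dkk2 UMIs lay in 1 barcode, so the first step of Dkk2 rested on that barcode. Trps1, a transcription factor of dermal papilla and hair development, was at 25.7, 90.0, 182 and 611 CPM. Coch was at 68.8, 147, 149 and 1527 CPM, and the 18 Coch UMIs at 1 Crabp1 UMI came from 3 barcodes. Cyp26b1 went the other way at the top, with 388, 605, 529 and 161 CPM. Pi16, a peptidase inhibitor that marks fascial and adventitial fibroblasts, was at 795, 368, 99.2 and 80.4 CPM, so it was already lower in barcodes with 1 Crabp1 UMI (interval 269 to 493) than in those with none (740 to 853).

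**Figure D2:**
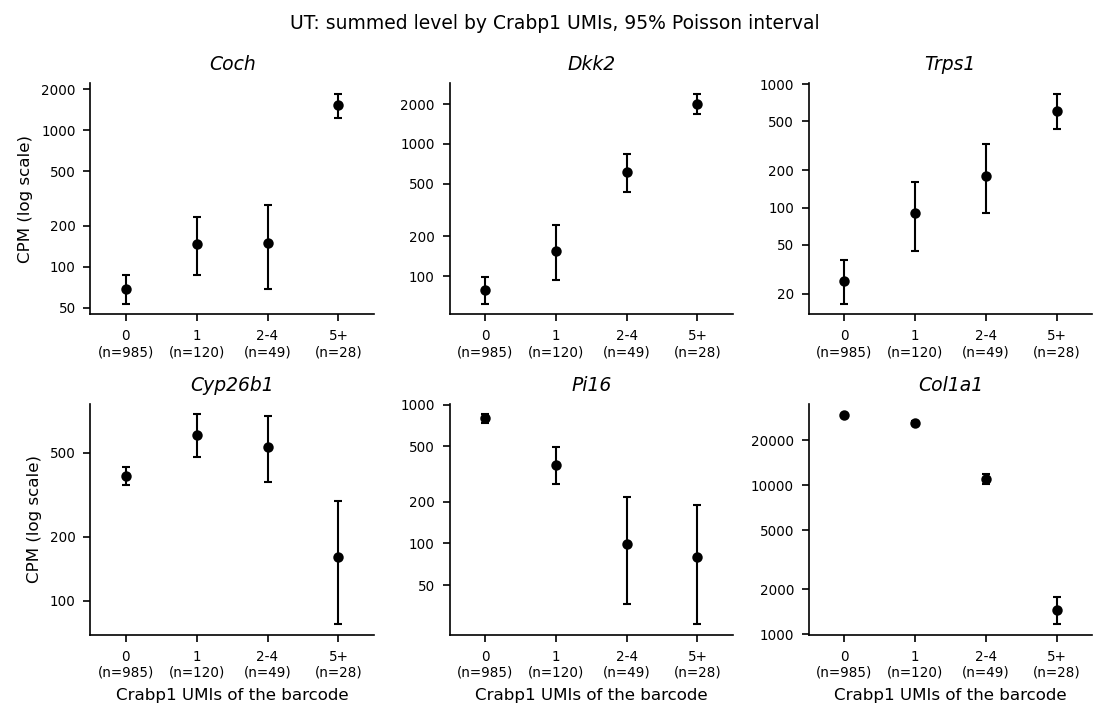
Level of 6 genes in UT barcodes with 0 (985 matched), 1 (120), 2 to 4 (49) and 5 or more (28) Crabp1 UMIs, as CPM on a log scale over the summed UMIs of each class, with 95% Poisson intervals. Dkk2 and Trps1 are higher and Pi16 and Col1a1 lower at each step, and Coch is high at 5 or more. At 1 Crabp1 UMI, 14 of the 19 Dkk2 UMIs lie in 1 barcode.

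The depth also changed along these classes, with medians of 759, 768.5, 801 and 1778.5 UMIs. Barcode by barcode, the Crabp1-positive set was not uniform. Malat1, a long noncoding RNA that stays in the nucleus, had at least 10 UMIs in 17 of the 197 Crabp1-positive barcodes of UT and in 18 of the 1104 with no Crabp1, a split at 10 that was set after the values were seen. In the 17 barcodes Malat1 had 95 to 760 UMIs, with a median of 456, and in the other 180 it had 12 UMIs in all. Over the whole set Malat1 was 3.89-fold higher than in matched barcodes (3.77 to 4.01). Barcodes with at least 10 Malat1 UMIs and those with fewer are called Malat1-rich and Malat1-poor here. The Malat1-rich barcodes had a median of 3718 UMIs and 1.23% mitochondrial UMIs, against 763.5 UMIs and 3.54% in the Malat1-poor ones. Crabp1 was detected in 48.6% of the 35 Malat1-rich barcodes of UT and in 14.2% of the 1266 Malat1-poor barcodes, a comparison in which depth differs too.

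The 28 barcodes with 5 or more Crabp1 UMIs were split by Malat1 and, among the Malat1-poor, by Coch. Both splits were set after the values were seen, and they keep the kinds apart by definition. Of the 28 barcodes, 12 were Malat1-rich, 10 were Malat1-poor with Coch and 6 were Malat1-poor without Coch. Dkk2 had 0 to 22 UMIs in the 12 Malat1-rich barcodes and was absent from 1 of them, while Coch had 1 UMI in 1 of them. In the 16 Malat1-poor barcodes Dkk2 never exceeded 1 UMI. Coch was found in the barcode with the most Crabp1 of the library (46 Crabp1, 39 Coch and 56 Dcn UMIs of 2381) and in the one with 18 Crabp1 UMIs (38 Coch and 31 Dcn UMIs of 1899). Col1a1 had at most 3 UMIs in any of the 12 Malat1-rich barcodes, although these held 2722 to 6134 UMIs.

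**Figure D3:**
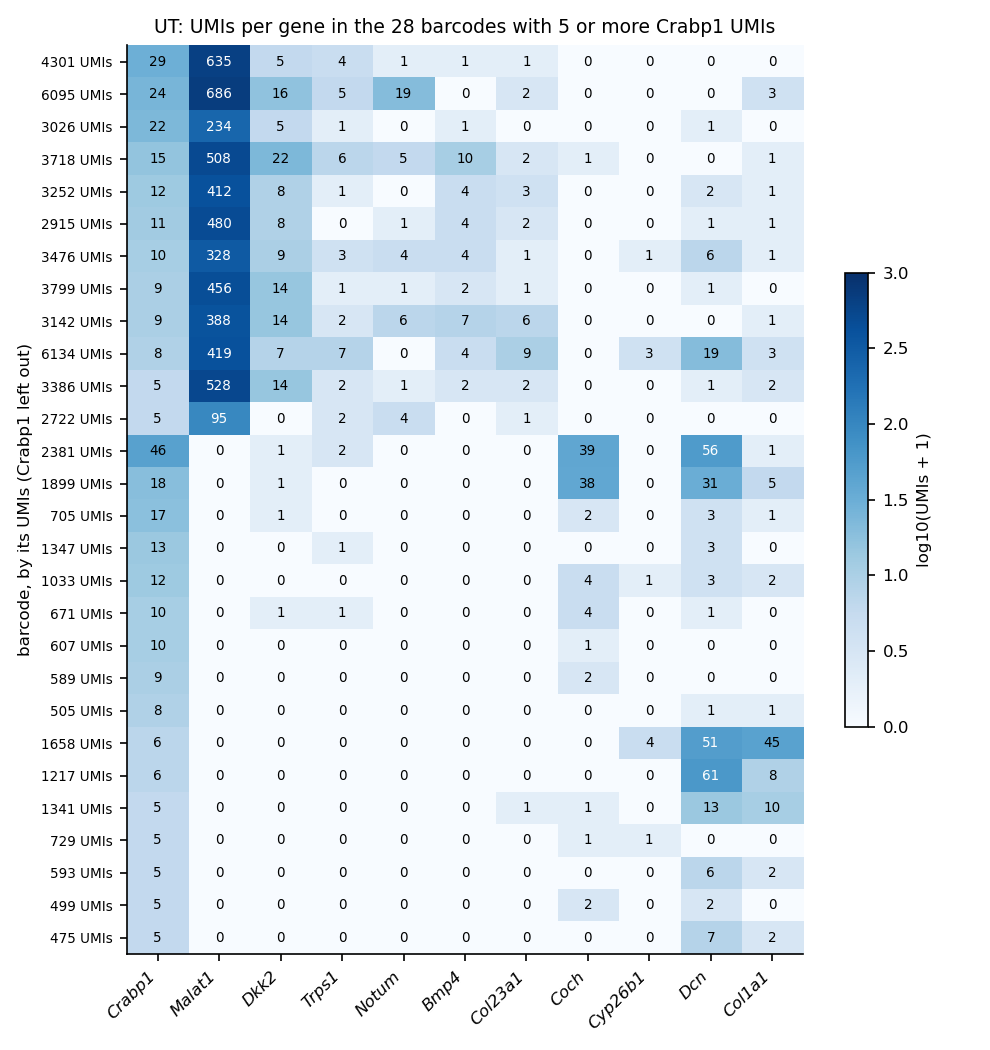
UMIs of 11 genes (columns, chosen after the values were seen) in each of the 28 UT barcodes with 5 or more Crabp1 UMIs (rows, labelled by total UMIs without Crabp1), with the number printed and the colour showing log10(UMIs + 1). The upper 12 barcodes carry Malat1 and, in all but 1 of them, Dkk2, and the lower 16 carry no Malat1 and in 10 cases Coch.

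Taken over all UT barcodes, most measured genes of the dermal papilla were higher. Of its 20 members, 12 were measured and 9 (75%) were higher, against 3.33% of all genes, and the median log2 ratio of the measured members was 2.20. Rspo3, Rspo4, Lef1, Wif1, Notum and Fgf10 had fewer than 10 UMIs in the matched set and reached the minimum only with the Crabp1-positive barcodes. The share is therefore given only as a description. The higher genes included secreted signals and transcription factors. The R-spondins Rspo3 and Rspo4, secreted amplifiers of Wnt signalling, had 28 and 11 UMIs against 8 and 3 in the larger matched set, or 13.9-fold (6.18 to 35.3) and 14.6-fold (3.85 to 81.4). Lef1, the transcription factor through which beta-catenin acts, had 25 UMIs against 4 (24.8-fold, 8.58 to 98.2).

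Secreted brakes on Wnt signalling were higher as well. Wif1, which binds Wnt proteins, had 25 UMIs in 12 barcodes against 5 in 4 (19.9-fold, 7.47 to 66.5). Notum, an enzyme that removes the lipid from Wnt proteins, had 46 UMIs in 11 barcodes against 1 UMI. Dkk2 had 182 UMIs in 29 barcodes against 76 in 29 (9.52-fold, 7.25 to 12.6), and its fold was 8.50 without the barcode that held most of it. Sfrp2, a secreted Frizzled-related protein, had 12 UMIs in 5 barcodes against 2. Of the 9 measured Wnt antagonists, 5 were higher and none was lower, with a median log2 ratio of 1.10 that was -0.029 after thinning to 400 UMIs. Wif1, Notum and Sfrp2 had fewer than 10 UMIs in the matched set and reached the minimum only with the Crabp1-positive barcodes. Wif1 and Notum are also in the dermal papilla list, and Dkk2 and Nkd2 in the papillary list. The count is therefore only a description and is not separate from those lists.

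Growth factors were the next group of the dermal papilla list. Bmp4, a bone morphogenetic protein made by the papilla, had 50 UMIs in 16 barcodes against 30 in 23 (6.63-fold, 4.13 to 10.8). Inhba, the activin A subunit, had 42 UMIs against 16 (10.4-fold, 5.75 to 19.9), and Fgf10, a fibroblast growth factor for epithelium, 11 against 3 (14.6-fold, 3.85 to 81.4). The transcription factor Trps1 had 60 UMIs in 25 barcodes against 25 in 20 (9.54-fold, 5.89 to 15.9). The 3 measured members that stayed under 2-fold once 20 CPM had been added were Fgf7 (2.87-fold, 1.29 to 6.2), Vcan, the proteoglycan versican (1.51-fold, 0.841 to 2.61), and Cntfr, a cytokine receptor subunit (2.53-fold, 0.832 to 7.15).

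Papillary genes were partly higher. Of the 11 measured, 4 (Dkk2, Col23a1, Nkd2 and Prdm1) were higher and none was lower. Prdm1 had 6 UMIs in the matched set and reached the minimum only with the Crabp1-positive barcodes. Col23a1, a transmembrane collagen, had 42 UMIs in 20 barcodes against 24 in 19 (6.96-fold, 4.12 to 12). Nkd2, an intracellular Wnt inhibitor, had 18 against 23 UMIs (3.11-fold, 1.58 to 6.03). Axin2, a target of canonical Wnt signalling, had 6 against 19 UMIs (1.26-fold, 0.410 to 3.27), and Ntn1, which encodes netrin-1, 19 against 94 (0.804-fold, 0.463 to 1.33).

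The retinoid pathway beyond Crabp1 was close to that of the matched barcodes. Of 12 measured genes, 1 was higher and none was lower, and the median log2 ratio was 0.11 beside 0.06 for all genes. The higher gene was Crabp2, which carries retinoic acid to its nuclear receptors, with 10 UMIs in 6 barcodes against 3 in 2 (13.3-fold, 3.41 to 74.9), although within the Malat1-rich barcodes it had 6 UMIs against 14 in their 18 controls (0.665-fold, 0.209 to 1.84). Of those 14 UMIs, 12 lay in 2 of the 3 controls that carried keratinocyte markers, which leaves 6 against 2 and too few for a fold. Rarg, a retinoic acid receptor, had 18 against 65 UMIs (1.10-fold, 0.615 to 1.88). Aldh1a1, an enzyme that makes retinoic acid, had 44 against 277 UMIs (0.631-fold, 0.449 to 0.870).

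Smaller signals came from other lists. Of the 4 measured dermal sheath and contractile genes only Tpm2, a tropomyosin, was higher, with 20 UMIs against 13 (6.12-fold, 2.90 to 13.4). Among the 7 measured tendon and stiff-matrix genes, Fmod and Tnn were higher and Cilp was lower. Tnn, which encodes tenascin-N, had 8 UMIs in 4 barcodes against 3 in 1 barcode. Tnc, which encodes tenascin-C, had 1 UMI in the Crabp1-positive and 2 in the matched barcodes, too few for a fold.

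Of the genes lower in the Crabp1-positive barcodes, some were spread over many matched barcodes. Gpx3, a secreted glutathione peroxidase, had 91 UMIs in 34 barcodes against 1407 in 324 (0.257-fold, 0.206 to 0.318). Pi16 had 56 against 774 UMIs (0.288-fold, 0.215 to 0.378), Cilp, a cartilage intermediate layer protein, 65 against 828 (0.312-fold, 0.239 to 0.402), Ctla2a, a cysteine protease inhibitor, 37 against 588 (0.25-fold, 0.174 to 0.349) and Klk1, a kallikrein, 10 against 219 (0.182-fold, 0.0858 to 0.340). Within the Malat1-rich barcodes alone Pi16 went the other way, with 21 UMIs in 3 barcodes against 9 in 4 (3.62-fold, 1.59 to 8.98). That value rested on 1 barcode with 12 of the 21 UMIs, without which it was 1.68-fold (0.59 to 4.77), and it was 1.86-fold (0.817 to 4.62) without the 3 controls that carried keratinocyte markers and 0.862-fold without both. Of the reticular list 3 of 9 measured genes were lower (Gpx3, Cxcl12 and Lpl), and of the fascial list 1 of 10, Pi16. None of the 7 general fibroblast genes passed 2-fold, but their median log2 ratio was -0.62, and summed they took 55474 CPM against 93236 CPM.

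The remaining lowest genes were carried by few matched barcodes. Cd74, the MHC class II invariant chain, had 1092 UMIs in 16 matched barcodes against 5 UMIs, and H2-Ab1, H2-Eb1 and H2-Aa, class II chains, had 354, 371 and 320 UMIs in 8, 16 and 11 matched barcodes against 0, 3 and 2. Krt15, a basal keratin, had 299 UMIs in 6 matched barcodes against 3, and 294 of the 299 lay in 1 matched barcode. Single matched barcodes also held 710 of the Cd74, 261 of the H2-Ab1, 244 of the H2-Eb1 and 210 of the H2-Aa UMIs. Values without the top barcode leave out only a Crabp1-positive barcode, so they do not cover these cases. Class II genes mark antigen-presenting cells and Krt15 basal keratinocytes, and the former should be removed by a CD45- sort. The part of such barcodes in other differences was not tested.

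**Figure D4:**
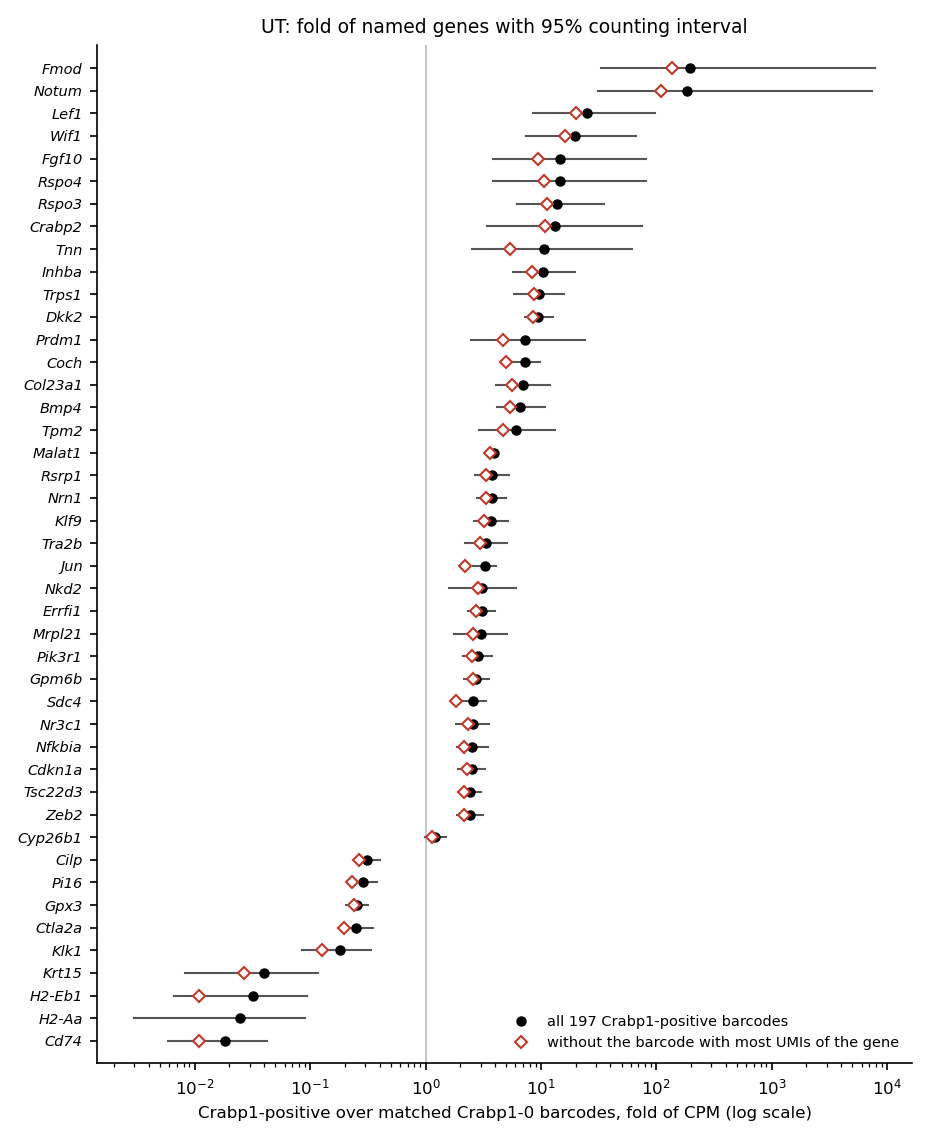
Fold of CPM between the 197 Crabp1-positive and 985 matched barcodes of UT for the genes named by rule (horizontal, log scale, with 95% counting intervals), and the fold without the Crabp1-positive barcode that held most UMIs of that gene (open diamonds). Every gene drawn above Cyp26b1 stays above 1 without its top barcode, and H2-Ab1, with 0 UMIs in the Crabp1-positive barcodes, is not drawn.

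Beyond the lists, the genes with the highest ratios included regulators of transcription and signalling. Nrn1, which encodes the neurite-promoting membrane protein neuritin, had 94 UMIs in 35 barcodes against 100 in 83 (3.74-fold, 2.79 to 5.0). Gpm6b had 109 in 60 against 157 in 115 (2.76-fold, 2.14 to 3.55), and Zeb2, a zinc-finger repressor, 99 in 51 against 162 in 125 (2.43-fold, 1.87 to 3.14). Nr3c1, the glucocorticoid receptor, was 2.57-fold higher (1.84 to 3.57), and Klf9 and Tsc22d3, transcription factors that glucocorticoids induce, 3.71-fold (2.64 to 5.21) and 2.45-fold (1.96 to 3.05). The folds of Pik3r1, a regulatory subunit of phosphoinositide 3-kinase, Errfi1, an inhibitor of the epidermal growth factor receptor, Sdc4, the proteoglycan syndecan-4, and Cdkn1a, the cell cycle inhibitor p21, lay between 2.51 and 3.06. The splicing factors Tra2b and Rsrp1 stood at 3.35 and 3.76, and Mrpl21, a mitochondrial ribosomal protein whose gene overlaps Ighmbp2 on the other strand, at 3.01.

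Most of these genes were not higher among Malat1-poor barcodes, where the folds of Errfi1, Pik3r1, Cdkn1a, Tsc22d3 and Nr3c1 lay between 1.10 and 1.29 with intervals that include 1. Sdc4 was at 0.949, Rsrp1 at 0.712 and Nfkbia, the inhibitor of NF-kappaB, at 0.61 there. Within Malat1-rich barcodes Nrn1 was 22.5-fold higher (8.33 to 85.4), Nr3c1 5.69-fold (2.96 to 11.8), Pik3r1 4.89-fold (2.92 to 8.54) and Zeb2 4.57-fold (2.63 to 8.29). Without the 3 controls that carried keratinocyte markers these folds were 11.6 (4.28 to 43.9), 3.19 (1.62 to 6.85), 3.14 (1.79 to 5.83) and 2.35 (1.35 to 4.26). Jun, an immediate early transcription factor, was 3.26-fold higher over all UT barcodes but 0.743-fold within Malat1-rich and 0.916-fold within Malat1-poor barcodes. Of the genes outside the lists with the highest ratios, Gpm6b and Mrpl21 were therefore carried by Malat1-poor barcodes. The intervals of Nrn1, Zeb2 and Klf9 lay above 1 in both comparisons, although that of Klf9 included 1 without the 3 controls (1.46-fold, 0.910 to 2.38).

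Further lists that bear on signals from fibroblasts to nerves and on BMP gave few differences. Of 14 measured neurotrophic and axon guidance genes, 2 were higher, Tnn and Ncam1 (23 UMIs in 15 barcodes against 15 in 9, 6.1-fold, 3.05 to 12.6), and Ptn, the growth factor pleiotrophin, was lower with 0 UMIs against 36 in 4 barcodes. Of 9 measured BMP and TGF-beta targets only Id1 was higher (5.96-fold, 2.72 to 13.6). Of the 16 measured matrix genes none was higher and only Fn1, which encodes fibronectin, was lower, with a list median of -0.56 on the log2 scale.

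Single barcodes carried part of this signal. Of the 245 higher genes, 117 stayed at 2-fold or more when the Crabp1-positive barcode with most UMIs of the gene was left out, 22 were seen in 5 or fewer barcodes and 17 had at least 50% of their UMIs in 1 barcode. The clearest case was the list of dissociation stress genes, where 10 of 12 were higher and Atf3 was lower. One Malat1-rich barcode of 5487 UMIs with 4 Crabp1 UMIs held 202 of the 239 UMIs of Hspa1a and 133 of the 169 of Hspa1b, which encode inducible heat-shock protein 70, and 746 of the 1778 UMIs of the whole list. Hspa1a was 5.43-fold higher (4.45 to 6.64) with it and 0.860-fold without it. That barcode alone was the top carrier of 25 of the higher genes, and without it 213 genes were higher and 83 lower.

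The Malat1-rich barcodes carried most of the rest. They were 17 of 197 barcodes (8.63%, against 1.63% of those with no Crabp1) and held 30.3% of the UMIs of the Crabp1-positive set. For 207 of the 245 higher genes (84.5%) at least 50% of the UMIs came from them, and for 210 (85.7%) a Malat1-rich barcode was the top carrier. Matching on total UMIs had not matched this property. The comparison was therefore repeated within Malat1-rich and within Malat1-poor barcodes, an analysis added after the values were seen.

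Among Malat1-rich barcodes of UT, 17 with Crabp1 were set against all 18 without, whose median was 3545.5 UMIs. These 18 were not matched on depth and had 568 to 24879 UMIs, against 2692 to 7517 in the 17. Counts of barcodes with a gene are therefore not at equal depth here. Of 3260 genes measured, 439 (13.5%) were higher and 573 (17.6%) were lower. All 10 measured dermal papilla genes were higher with these 18 controls, with a median log2 ratio of 2.77 against 0.04 for all genes, but 8 of the 10 were when 3 controls with keratinocyte markers were left out. Rspo3, Lef1, Wif1, Notum, Fgf10, Trps1 and Inhba had fewer than 10 UMIs in the controls and passed the minimum only with the Crabp1-positive barcodes. Dkk2 was at 2184 against 347 CPM (6.29-fold, 4.42 to 9.12), in 15 of the 17 barcodes against 5 of 18. Trps1 had 49 against 6 UMIs (12.7-fold, 5.42 to 36.2), in 16 of 17 barcodes against 5 of 18, and Bmp4 48 against 10 (7.45-fold, 3.72 to 16.5), in 15 against 5.

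Some genes were seen almost only in Malat1-rich barcodes, and these are named after their values were seen. Igfbp3, an insulin-like growth factor binding protein, had 697 UMIs in 16 of the 17 barcodes (median 36, highest 84) against 213 in 12 of 18 (5.08-fold, 4.35 to 5.95), and 1 UMI in the 180 Malat1-poor Crabp1-positive barcodes. Prlr, the prolactin receptor, had 123 UMIs in 14 barcodes against 30 in 6 (6.36-fold, 4.24 to 9.83), Rasd1, a small GTPase induced by glucocorticoids, 72 in 10 against 2 in 1, and Slc26a7, an anion transporter, 67 in 11 against 18 in 4 (5.78-fold, 3.39 to 10.3). Pappa2, a protease that cleaves insulin-like growth factor binding proteins, had 40 UMIs in 12 barcodes against 5 in 4 (12.4-fold, 4.90 to 40.3). Sostdc1, a secreted inhibitor of BMP and Wnt signalling, had 41 UMIs in 6 barcodes against 2, and its fold in all UT barcodes went from 81.5 to 12.1 without the barcode with most of it.

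Of the 18 control barcodes, 3 carried at least 5 of the 12 keratinocyte markers. They held 2977 of the 2986 UMIs of that list and had a median of 23202 UMIs. With these 3 left out, the 15 others had a median of 3310 UMIs, Dkk2 was 3.23-fold higher (2.27 to 4.69), Trps1 6.51-fold (2.79 to 18.6), Lef1 4.99-fold (1.72 to 19.7), Rspo3 6.12-fold (1.85 to 31.8) and Igfbp3 2.81-fold (2.39 to 3.30). Bmp4 was then 3.83-fold higher (1.91 to 8.49), Prlr 3.38-fold (2.24 to 5.26), Slc26a7 2.97-fold (1.74 to 5.31) and Pappa2 6.38-fold (2.52 to 20.7). Of 2306 genes measured against the 15, 287 (12.4%) were higher and 306 (13.3%) were lower, and the median log2 ratio of the 10 dermal papilla genes was 2.13, against 0.06 for all genes. Fgf7 (1.33-fold, 0.438 to 4.45) and Vcan (1.86-fold, 0.425 to 11.2) no longer passed 2-fold. Of 32 genes named by rule with a value in both comparisons, 30 kept their direction. The 2 that turned were Malat1, from 1.41-fold (1.36 to 1.45) to 0.82-fold (0.794 to 0.846), and Nfkbia, from 0.919-fold to 1.47-fold (0.950 to 2.33). Cyp26b1 was 6.6-fold higher with all 18 controls and 3.39-fold (1.11 to 13.8) with 15, from 17 UMIs in 5 barcodes against 4 in 2, and 11 of the 17 UMIs lay in 1 barcode.

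Collagen was low in the Malat1-rich barcodes, with and without Crabp1. In the 17 with Crabp1, Col1a1 had a median of 1 UMI per barcode (318 CPM) and was absent from 5 of the 17, although the median depth of these barcodes was 3718 UMIs. In the 18 without Crabp1 it had a median of 2.5 UMIs (1403 CPM) and was seen in 13. Summed, it was at 5514 against 6627 CPM (0.832-fold, 0.736 to 0.939), or 0.428-fold (0.378 to 0.483) of the 15 without keratinocyte markers. A single barcode with 6962 UMIs and 1 Crabp1 UMI held 369 of their 409 Col1a1 UMIs, together with 141 of 230 Dcn UMIs, and no Dkk2. In the barcodes matched to the whole set the median Col1a1 level was 15537 CPM, with 12 UMIs per barcode.

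Among Malat1-poor barcodes, 180 with Crabp1 were matched to 900 without, with medians of 763.5 and 762.5 UMIs. Of 6094 genes measured, 76 (1.25%) were higher and 124 (2.03%) were lower. Here 2 of the 7 measured dermal papilla genes were higher, Rspo4 with 11 UMIs against 3 (17.4-fold, 4.6 to 97.1) and Trps1 with 11 against 15 (3.48-fold, 1.45 to 8.11). Bmp4 was at 2 against 16 UMIs (0.593-fold, 0.0662 to 2.52), Lef1 had no UMI in either set and Dkk2 had 20 against 34 (2.79-fold, 1.52 to 4.99). Of the 12 dissociation stress genes none was higher and 3 (Junb, Atf3 and Zfp36) were lower. Of the UMIs counted over all Crabp1-positive barcodes, the 17 Malat1-rich ones held 295 of 347 for the dermal papilla list and 1540 of 1778 for the stress list.

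A different set of genes was higher in the Malat1-poor barcodes. Coch had 121 UMIs in 19 barcodes against 63 in 10 (9.11-fold, 6.67 to 12.6). Fmod, the collagen-binding proteoglycan fibromodulin, had 49 UMIs in 8 barcodes against 1 UMI. Cck, the peptide hormone cholecystokinin, had 22 UMIs in 9 barcodes, and Kif26b, a kinesin family member, 21 in 11, both against none in the 900 matched barcodes, which puts them at least 34.8-fold and 33.2-fold higher against a floor of 3 UMIs over the matched set. Gpm6b, a membrane proteolipid, had 105 UMIs in 57 barcodes against 140 in 103 (3.56-fold, 2.74 to 4.62), and Tnmd, tenomodulin of tendon and ligament fibroblasts, 75 in 22 against 132 in 78 (2.70-fold, 2.0 to 3.61). Igfbp4, an insulin-like growth factor binding protein, was 6.64-fold higher (3.61 to 12.4) and Id1, a target of BMP signalling, 5.93-fold (2.11 to 17.3). Cck, Kif26b, Igfbp4 and Tnmd were named after their values were seen.

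Several of these genes were found in the same barcodes. Of the 180 Malat1-poor Crabp1-positive barcodes, 19 carried Coch and 161 did not, and their levels are given as a description, since the genes were chosen after their values were seen. Tnmd was at 3579 CPM (2731 to 4607) in the 19 barcodes and 97.4 CPM (54.5 to 161) in the 161. Fmod was at 2505 against 45.5 CPM, Gpm6b at 2565 against 403, Igfbp4 at 1074 against 64.9, Kif26b at 954 against 32.5 and Cck at 775 against 58.4. Single barcodes varied, with Tnmd in 11 of the 19 barcodes (0 to 16 UMIs), Gpm6b in 14 (0 to 8 UMIs) and Fmod in 6 (0 to 15 UMIs).

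These 19 barcodes also had little collagen RNA. Col1a1 was at 1611 CPM (1061 to 2343) against 22792 CPM in the 161 others, with a median of 0 UMIs per barcode against 9, and Dcn was at 8650 against 26266 CPM. Gpx3 and Ctla2a had no UMI in the 19 barcodes, where the exact Poisson interval of a count of 0 reaches 220 CPM, and were at 552 and 240 CPM in the others. The median depth of the 19 was 684 UMIs, close to that of the Malat1-poor set as a whole.

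Coch alone did not mark this pattern. The 12 Malat1-poor barcodes of UT with Coch but no Crabp1 had Col1a1 at 20500 CPM and Dcn at 29751 CPM, near the levels of the matched barcodes. Pi16 was at 4112 CPM (3217 to 5178) in them against 179 CPM (36.9 to 523) in the 19 with both genes. Tnmd was at 457 CPM (197 to 900) in these 12 barcodes, and Fmod, Kif26b, Cck and Igfbp4 had no UMI. Cyp26b1 was at 1199 CPM in the 12 barcodes and 298 CPM in the 19.

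**Figure D5:**
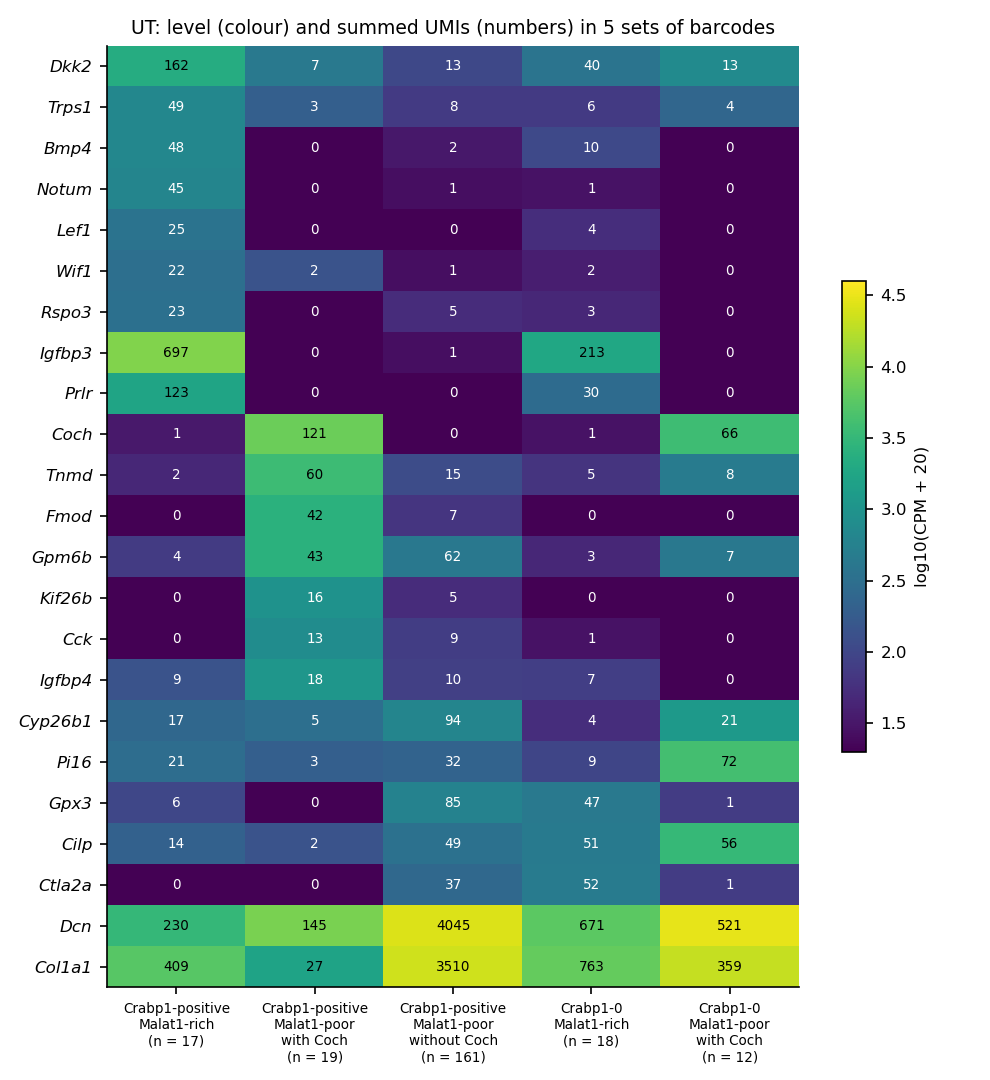
Level of 23 genes (rows) in 5 sets of UT barcodes (columns, with their number), with the colour showing log10(CPM + 20) and the printed number the summed UMIs. Dkk2 to Prlr peak in the Crabp1-positive Malat1-rich barcodes, Coch to Igfbp4 in the Malat1-poor barcodes with Crabp1 and Coch, and Pi16, Dcn and Cilp in those with Coch and no Crabp1.

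The third and largest group, the 161 Malat1-poor barcodes with Crabp1 but no Coch, held general fibroblast RNA. Their median Col1a1 level was 12626 CPM, against 15537 CPM in the matched barcodes, and Dcn was found in 158 of them. Dkk2 had 13 UMIs in 9 of them (84.4 CPM, 44.9 to 144) and Trps1 8 UMIs in 7, and Bmp4 and Igfbp3 had 2 UMIs and 1 UMI in all. Pi16 was lower than in matched barcodes, at 208 CPM (142 to 293). Cyp26b1 was at 610 CPM (493 to 747), against 388 CPM (350 to 429) in the barcodes matched to the whole set. Gpm6b was at 403 CPM (309 to 516) against 173 CPM in the Malat1-poor controls.

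In the IMQ library 17 Crabp1-positive barcodes were compared with 85 matched ones, both with a median of 899 UMIs. Of 1598 measured genes, 313 (19.6%) were higher and 328 (20.5%) were lower, and 269 of the 313 were seen in 5 or fewer barcodes. Coch had 10 UMIs in 4 barcodes against 4 UMIs in 1 (8.86-fold, 2.56 to 38.7), and Cyp26b1 had 1 UMI against 19 (0.186-fold, 0.00449 to 1.17). Trps1 had 11 UMIs in 4 barcodes against 2 (19.5-fold, 4.25 to 181), and Dkk2 5 against 11 (1.61-fold, 0.439 to 5.03).

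Malat1-rich barcodes and barcodes with Coch were present among the 17. In all, 3 were Malat1-rich with 5684 to 7705 UMIs, the 3 highest depths, and had 18, 8 and 5 Crabp1 UMIs. They held 9 UMIs of Trps1, 5 of Bmp4 and 159 of Igfbp3, and 7 of Col1a1 (338 CPM, 136 to 697). The Coch transcript was found in 4 others, none of them Malat1-rich, and Fmod was found in 2 of these 4 with 3 UMIs and nowhere among the 85 matched barcodes. These 4 had Col1a1 at 19026 CPM (14775 to 24120), against 1611 CPM in the UT barcodes with Crabp1 and Coch. They held 3 UMIs of Tnmd, 2 of Gpm6b, 2 of Igfbp4, 1 of Cck and none of Kif26b in 3574 UMIs, and over all 17 barcodes Tnmd was at 0.787-fold (0.194 to 2.39). Dkk2 had 4 UMIs in the 3 Malat1-rich barcodes. Genes higher in both libraries included Igfbp3 (15.5-fold, 10.8 to 22.8), Rasd1 (35.0-fold, 17.7 to 79.1), Prlr (19 UMIs in 4 barcodes against none, at least 22.4-fold against a floor of 3 UMIs) and Ncam1, a neural cell adhesion molecule (11 UMIs in 4 barcodes against none, at least 13.0-fold). They were named after their values were seen, and 19.6% of all genes were higher in IMQ. The 3 Malat1-rich barcodes held 159 of the 162 Igfbp3, 87 of the 89 Rasd1 and 18 of the 19 Prlr UMIs. Of the 85 matched barcodes, 3 were Malat1-rich.

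Of the 34 genes named by rule as higher in UT, 19 were measured in IMQ, where 11 were higher, against 19.6% of all genes, and 2 (Prdm1 and Jun) were lower. Among the 11, Trps1, Coch, Bmp4, Sdc4 and Cdkn1a had fewer than 10 UMIs in the matched set. They reached the minimum only with the Crabp1-positive barcodes, so the count is given only as a description. The interval of Prdm1 included 1 (0.354-fold, 0.00817 to 2.49). Klf9 had 28 UMIs against 34 (2.92-fold, 1.7 to 4.96) and Errfi1 71 against 45 (5.59-fold, 3.79 to 8.31). All of these UMIs lay in the 3 Malat1-rich barcodes, as did those of Malat1, Tra2b, Cdkn1a and Bmp4, and 45 of 46 of Nfkbia. The 6 Malat1-rich IMQ barcodes without Crabp1 had Klf9 at 924 CPM against 1354 in these 3, Malat1 at 54943 against 57251 and Nfkbia at 1461 against 2176. Errfi1 was at 1282 against 3433 CPM and Cdkn1a at 238 against 1596. Nrn1 had 14 UMIs in 7 barcodes against 12 in 9 (4.13-fold, 1.78 to 9.79). Of the 10 genes named as lower in UT, 4 were measured and 3, Pi16, Gpx3 and Ctla2a, were lower in IMQ as well, against 20.5% of all genes. Of these Pi16 had only 1 against 14 UMIs, with an interval that includes 1 (0.253-fold, 0.00599 to 1.66).

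General matrix genes were lower in the Crabp1-positive barcodes of IMQ. Col1a1 was at 9993 against 41235 CPM (0.242-fold, 0.216 to 0.271) and Dcn at 4051 against 15871 CPM (0.255-fold, 0.213 to 0.304). Of the 13 measured fibrillar and interstitial matrix genes 9 were lower, against 20.5% of all genes. The 3 Malat1-rich barcodes held 20681 of the 33322 UMIs of the set and 7 of its 333 Col1a1 UMIs. In the 10 Malat1-poor barcodes without Coch Col1a1 was at 28455 CPM (25088 to 32147).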

How the data were processed

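Single-cell suspensions of sorted dermal cells were captured with Chromium 3′ v3 chemistry, 1 library from UT and 1 from IMQ skin. The deposited matrices hold UMI counts per gene and barcode, which the authors made with Cell Ranger (version 3.0.0 for UT and 3.1.0 for IMQ, per the processing notes) on mm10; the annotation and the strand setting are not given in the sources used here. The IMQ matrix holds fewer barcodes than the number of filtered IMQ cells the study counted, which does not tell which matrix was used there. Gene coordinates came from GENCODE M21, in which 31011 of the 31053 gene IDs were found.

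Barcodes with 200 to 5000 genes and at most 10% mitochondrial UMIs were kept in Python 3.11.15 with numpy 2.4.6, scipy 1.17.1 and pandas 2.3.3. The study used a mitochondrial maximum of 5% and removed predicted doublets; no doublets were removed for the values reported. Each Crabp1-positive barcode was matched to the 5 barcodes of its library with no Crabp1 UMI (Crabp1-0) nearest in total UMIs, each used once. UMIs were summed per set without Crabp1, and genes with at least 10 UMIs over both sets were compared as CPM. Intervals are exact Poisson (levels), Clopper-Pearson (shares) and conditional binomial (folds) intervals at 95%. UMIs are single molecules, but cells of a library are not replicates, so no p-value was computed. The comparison was tested on simulated data in which all barcodes of a set shared 1 profile. That setting lacks the clumping of UMIs in single barcodes described above, so it does not show how the intervals behave under it.

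The Crabp1-positive barcodes and the gene lists were chosen with earlier results of these data known. Genes were named by rule: members of the retinoid, dermal papilla, sheath, tendon, papillary and fascial lists that passed 2-fold, the 20 highest UT ratios of genes seen in at least 10% of the Crabp1-positive barcodes and the 10 lowest of genes with at least 200 CPM in the matched set, mitochondrial and ribosomal protein genes left out. Coch and Cyp26b1 were named as markers. Prlr, Igfbp3, Rasd1, Slc26a7, Pappa2, Sostdc1, Cck, Kif26b, Igfbp4, Tnmd, Hspa1a, Hspa1b, Ncam1, Id1 and other genes named outside this rule, the Malat1 threshold and the split by Coch were chosen after the values were seen. Many named genes overlap genes on the other strand, among them Rspo3, Rspo4, Lef1, Notum, Bmp4, Fgf10, Inhba, Nkd2, Pi16, Nrn1, Jun, Errfi1, Cdkn1a and Zeb2. Hspa1a and Hspa1b are near-identical copies whose reads can be split. The counts of all these genes are uncertain. Alternatives were a mitochondrial maximum of 5%, a minimum of 500 genes, at least 2 Crabp1 UMIs, all Crabp1-0 barcodes as controls, thinning to 400 UMIs, totals without mitochondrial, ribosomal and a few other abundant genes, 5 CPM added, 20 UMIs as the minimum, leaving out the top barcode of each gene, removal of doublets called with Scrublet in scanpy 1.11.5, and comparisons within Malat1-rich or Malat1-poor barcodes. Figures were drawn with matplotlib 3.10.9.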

Additional observations from a re-analysis of the deposited data

Results flagged for a closer look

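Barcodes outside the limits on genes and mitochondrial UMIs also carried the 2 main genes. In UT, 14 of 114 such barcodes held 28 Crabp1 UMIs and 9 held 41 Coch UMIs. In IMQ, 31 of 4004 held 60 Crabp1 UMIs and 51 held 214 Coch UMIs, with 68 of them in 1 barcode, against 62 and 30 UMIs in the passing IMQ barcodes. These counts were singled out because the report does not use them and they exceed the limit that a count of 0 allows.

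The ratio of 2 genes pointed opposite ways in the libraries, and the difference was not tested because each group is 1 library. Prdm1, a transcription factor of papillary fibroblasts, was higher in the Crabp1-positive barcodes of UT (11 UMIs in 8 barcodes against 6 in 2, log2 ratio 1.31). In those of IMQ it was lower (1 UMI against 10 in 3 barcodes, log2 ratio -1.07), with an interval that includes 1 (0.354-fold, 0.00817 to 2.49). Of the 10 matched UMIs, 8 lay in 1 barcode. Jun was at a log2 ratio of 1.59 in UT and -1.38 in IMQ (6 UMIs in 3 barcodes against 59 in 5, 0.360-fold, 0.127 to 0.832). All 11 UMIs of Prdm1 and 125 of the 136 of Jun in UT lay in Malat1-rich Crabp1-positive barcodes. Among Malat1-rich barcodes of UT, Jun was at 1685 CPM with Crabp1 and 2267 CPM without.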

How the results depend on the processing

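Log2 ratios here have 20 CPM added. The number of Crabp1-positive barcodes in UT (197) was 70 with at least 500 genes, 77 with at least 2 Crabp1 UMIs and 122 after thinning, and in IMQ (17) it was 9 at a mitochondrial maximum of 5%, 5 with at least 500 genes and 9 with at least 2 Crabp1 UMIs. The 245 higher and 82 lower genes of UT became 523 and 459 with at least 2 Crabp1 UMIs, 699 and 472 with 5 CPM added, 117 and 182 without the top barcode of each gene, 76 and 124 among Malat1-poor and 439 and 573 among Malat1-rich barcodes. The lower genes alone became 372 with at least 500 genes, 126 against all Crabp1-0 barcodes, 334 after thinning and 135 with totals that left out mitochondrial, ribosomal and other abundant genes. The 313 higher and 328 lower genes of IMQ became 1079 and 943 against all Crabp1-0 barcodes, 606 and 1580 after thinning, 167 and 578 without the top barcode and 138 and 150 with at least 20 UMIs. The log2 ratio of Coch in UT (2.54) was 4.11 at a mitochondrial maximum of 5%, 1.97 with at least 500 genes and 2.03 without its top barcode, and that of Cyp26b1 (0.27) was -0.15 with at least 2 Crabp1 UMIs and 2.19 among Malat1-rich barcodes, where Coch had too few UMIs for a value.

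Direction turned for Crabp2 (-0.49), Pi16 (1.63), Jun (-0.42) and Nfkbia (-0.12) among Malat1-rich barcodes with all 18 controls, of which Nfkbia (0.54) turned back and Crabp2 had too few UMIs without the 3 that carried keratinocyte markers, and for Bmp4 (-0.33), Malat1 (-0.50), Rsrp1 (-0.33), Jun (-0.10), Sdc4 (-0.066), Nfkbia (-0.55) and the median of the dissociation stress list (-0.45) among Malat1-poor ones. After thinning the median of the Wnt antagonists was -0.029. The cause was not tested. Other ratios of named genes and list medians kept their direction, 433 with little change and 87 with more under the alternatives chosen first, and 95 and 49 under those added later. Scrublet removed 14 UT and 9 IMQ barcodes, of which 3 and 1 were Crabp1-positive. No paired analysis was possible because each group is 1 library. Depth limits every single-barcode statement, since a barcode of about 800 UMIs misses most genes of low CPM, and 1 Crabp1 UMI does not tell expression from free RNA.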
